A study of Mus musculus with 4 samples.

Results

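Upper-layer projection neuron identity genes were followed in dorsal cortex of mouse embryos, as a set of 9 genes: Cux1, Cux2, Pou3f1, Pou3f2, Pou3f3, Rorb, Unc5d, Inhba and Mdga1. The members were taken by name from the features of the deposited table that carry a single gene symbol, and the feature with the highest mean over the 4 arrays was used for each gene. All 9 were found among 19938 genes with a single symbol, and all 9 lay above the level under which dim genes were left out (log2 6.16). Tissue was taken at E18.5 (embryonic day) and total RNA was hybridised to single-colour whole-transcript arrays. The 2 control samples carried Mek1fl/wt on a Mek2-/- background. The 2 mutant samples carried Mek1fl/fl on the same Mek2-/- background, together with NestinCre. Mek2 was therefore null in every sample per the genotype labels, although the design text calls the controls wild type. NestinCre drives Cre recombinase in neural progenitors, so their neurons and glia inherit the recombined allele, and vessels and microglia arise from other lineages. The labels name the transgene for the mutants alone, so its own effect and the loss of Mek1 cannot be told apart.

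Upper-layer neurons are the late-born excitatory neurons of cortical layers II to IV, many of which connect cortical areas and send axons through the corpus callosum. Cux1 and Cux2 are homeodomain proteins of the CUT class that shape their dendrites and spines. Pou3f1, Pou3f2 and Pou3f3 (Oct6, Brn2 and Brn1) are POU homeodomain factors, of which Brn1 and Brn2 act together in making and placing upper-layer neurons, partly while these cells are still dividing. Rorb is a nuclear receptor of layer IV. Unc5d, a netrin and FLRT receptor, marks newborn multipolar cells and upper layers. Mdga1 is a membrane-anchored immunoglobulin protein that binds neuroligins, and Inhba encodes the subunit of activin A. MEK1 and MEK2 phosphorylate ERK1 and ERK2.

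None of the 9 upper-layer genes passed the test between mutants and controls. In limma with Benjamini-Hochberg adjustment over 13956 genes, their adjusted p ran from 0.236 for Inhba to 0.999 for Pou3f2, where 1.02% of all genes tested were called at an adjusted p under 0.05, 0.0143% as higher and 1.01% as lower. At an unadjusted p under 0.05 in limma, Inhba, Mdga1 and Cux2 were higher and Unc5d was lower, which is 4 of 9 members against 13.4% of all genes tested. By direction, these were 3 higher against 5.73% and 1 lower against 7.69% of all genes. The members were chosen with earlier results of these data known, so this count carries no test. The median difference of the 9 genes, mutant minus control on the log2 scale, was 0.09, against 0.01 over all genes tested. The mutant mean was higher for 7 of the 9, where 52.3% of all genes had a higher mutant mean.

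**Figure D1:**
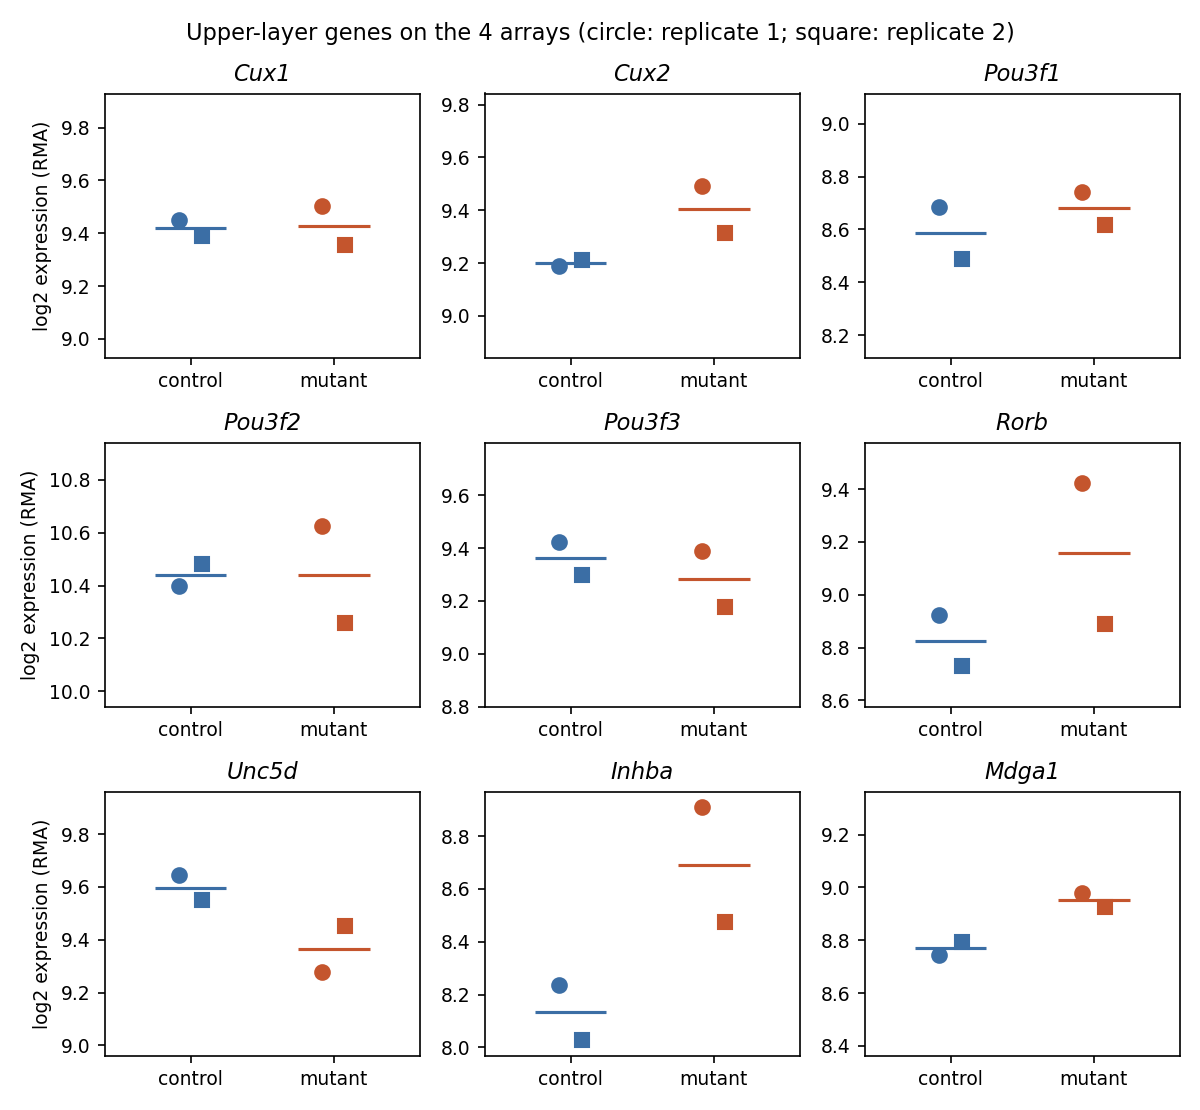
Log2 expression (RMA, vertical axis, each panel spanning the same range) of the 9 upper-layer genes on the 4 arrays, with control samples in blue, mutant samples in orange, replicate 1 as a circle, replicate 2 as a square and a line at the group mean. The groups do not overlap for Cux2, Unc5d, Inhba and Mdga1, and they overlap for the other 5 genes.

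Among the nuclear factors, the CUT pair differed from each other in pattern. Cux1 was at 9.45 and 9.39 in the controls and at 9.50 and 9.36 in the mutants. Both control values lay between those of the mutants. The difference was 0.01 ± 0.07 (SE) on the log2 scale, with a 95% interval from -0.17 to 0.19, so the interval of the ratio of mutant to control ran from 0.887 to 1.14 (limma, adjusted p = 0.979). Its feature stands for several transcripts, so the isoforms of Cux1 are not separated here. Cux2 was at 9.19 and 9.21 in the controls and at 9.49 and 9.32 in the mutants. Both mutants lay above both controls. The difference was 0.20 ± 0.08 (SE), a ratio of 1.15 with an interval from 1.01 to 1.32, short of a call (limma, adjusted p = 0.352). These intervals hold for 1 gene at a time and are not adjusted for the number of genes.

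The POU factors had no shared direction. Pou3f1 was at 8.68 and 8.49 in the controls and at 8.74 and 8.62 in the mutants, with overlap between the groups and a difference of 0.09 ± 0.09 (SE; limma, adjusted p = 0.726). Pou3f2 was at 10.40 and 10.48 in the controls and at 10.63 and 10.26 in the mutants. The mutants thus lay on either side of both controls, and the difference was 0.00 ± 0.13 (SE; limma, adjusted p = 0.999). A second, dimmer feature for Pou3f2 gave the same arrangement, with the mutants at 10.07 and 9.73 above and below both controls, and a difference of -0.03. Pou3f3 was at 9.42 and 9.30 in the controls and at 9.39 and 9.18 in the mutants. Here mutant 1 lay between the controls and mutant 2 below them, for a difference of -0.08 ± 0.09 (SE; limma, adjusted p = 0.791). The 95% interval of the ratio ran from 0.800 to 1.25 for Pou3f2, from 0.805 to 1.11 for Pou3f3 and from 0.912 to 1.25 for Pou3f1, and the data do not separate ratios inside these limits. Whether the probes of these related, intron-less genes also bind each other's transcripts was not tested.

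Rorb, the layer IV receptor, had the widest gap between samples of a group. It was at 8.92 and 8.73 in the controls and at 9.42 and 8.89 in the mutants. Mutant 1 stood above both controls, and mutant 2 lay between them. The mean difference of 0.33 ± 0.18 (SE) had an interval from -0.13 to 0.79 (limma, adjusted p = 0.520). The 2 mutants differed from each other by 0.53, more than the difference between the groups.

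The surface proteins went in opposite directions, and neither passed the test. Unc5d was at 9.64 and 9.55 in the controls and at 9.28 and 9.45 in the mutants. Both mutants lay below both controls, and the difference was -0.23 ± 0.08 (SE), a ratio of 0.851 with an interval from 0.739 to 0.980 (limma, adjusted p = 0.317). The other feature for Unc5d showed the same separation, at 9.44 and 9.36 against 9.20 and 9.33, with a smaller difference of -0.14. Mdga1 was at 8.75 and 8.79 in the controls and at 8.98 and 8.93 in the mutants. It had the smallest standard error of the 9 genes, and its difference of 0.18 ± 0.06 (SE) was a ratio of 1.14 with an interval from 1.03 to 1.26 (limma, adjusted p = 0.277).

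Inhba, the activin subunit and the only secreted ligand of the set, had the largest difference. It was at 8.24 and 8.03 in the controls and at 8.91 and 8.47 in the mutants. Both mutants lay above both controls, mutant 1 by the wider margin. The difference of 0.56 ± 0.16 (SE) was a ratio of 1.47 with an interval from 1.12 to 1.94, short of a call (limma, adjusted p = 0.236). In rank of unadjusted p Inhba stood at 883 of 13956 genes.

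**Figure D2:**
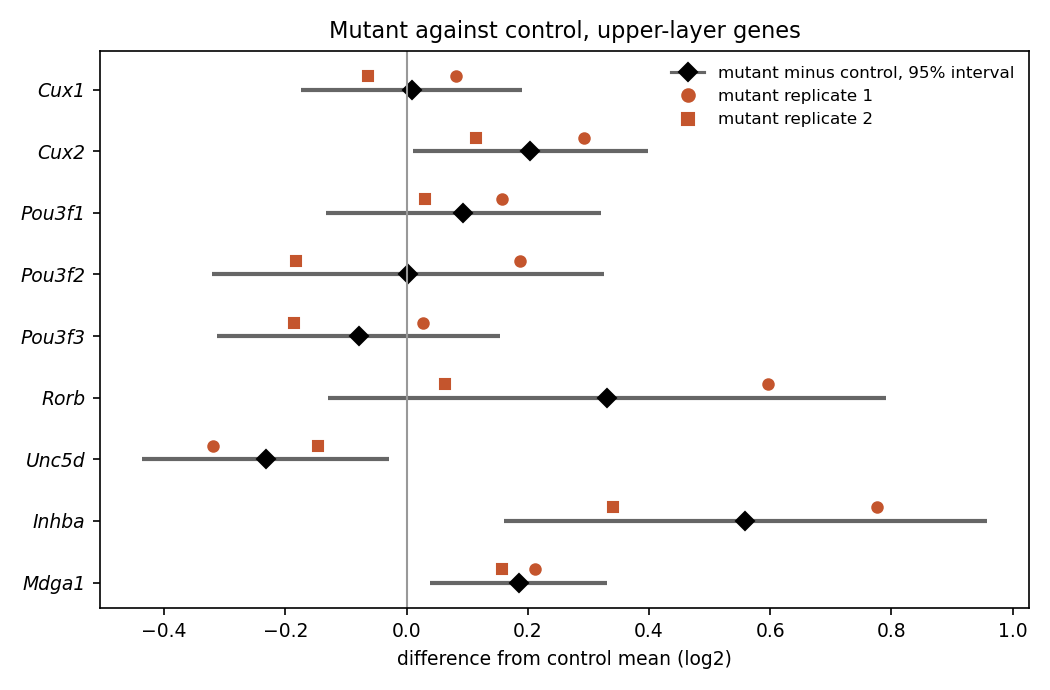
Mutant minus control (log2, horizontal axis) for each upper-layer gene, with the group difference as a black diamond, its unadjusted 95% interval as a grey bar, and each mutant sample's distance from the control mean in orange (circle for mutant 1, square for mutant 2). The intervals of Cux2, Unc5d, Inhba and Mdga1 leave out 0, and the largest difference is that of Inhba at 0.56.

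The groups did not overlap for 4 of the 9 genes, against 44.3% of all genes tested, so non-overlap was about as frequent in the set as on the whole array. The mutants were higher for 3 of these (22.8% of all genes) and lower for 1 (21.4%). In the same 4 genes the difference between the group means was larger than the gap between the controls and larger than the gap between the mutants, as it was for 32.0% of all genes. With 2 samples in each group, an exact two-sided permutation test of a single gene cannot go below p = 0.333.

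The mutants differed from each other across much of the set. Mutant 1 was higher than mutant 2 for 8 of the 9 genes, all but Unc5d, while over all genes tested mutant 1 was the higher in 35.8%. Measured from the control mean, the median of the 9 genes was 0.19 in mutant 1 and 0.03 in mutant 2. Mutant 1 lay above both controls for 7 of the 9 genes (34.8% of all genes), and mutant 2 did so for 3 (44.6% of all genes). Mutant 2 lay below both controls for 4 genes, Cux1, Pou3f2, Pou3f3 and Unc5d (30.5% of all genes). For Inhba the distance from the control mean was 0.78 in mutant 1 and 0.34 in mutant 2, for Rorb 0.60 and 0.06, and for Pou3f2 0.19 and -0.18. The gap between the mutants was wider than that between the controls for 8 of the 9 genes, all but Pou3f1, as it was for 61.0% of all genes. Control 1 was the higher control for 6 of the 9.

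Calls in the set turned on 1 sample. Without mutant 2, Inhba (0.78, adjusted p = 0.00818) and Rorb (0.60, adjusted p = 0.0179) passed in limma, in a fit that called 6.31% of all genes, or 1.07% as higher. That fit compares mutant 1 alone with the controls and takes the spread from the control pair, so mutant 1 is assumed to vary as the controls do. Without mutant 1, none of the 9 passed, and the fit called 1.88% of all genes.

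**Figure D3:**
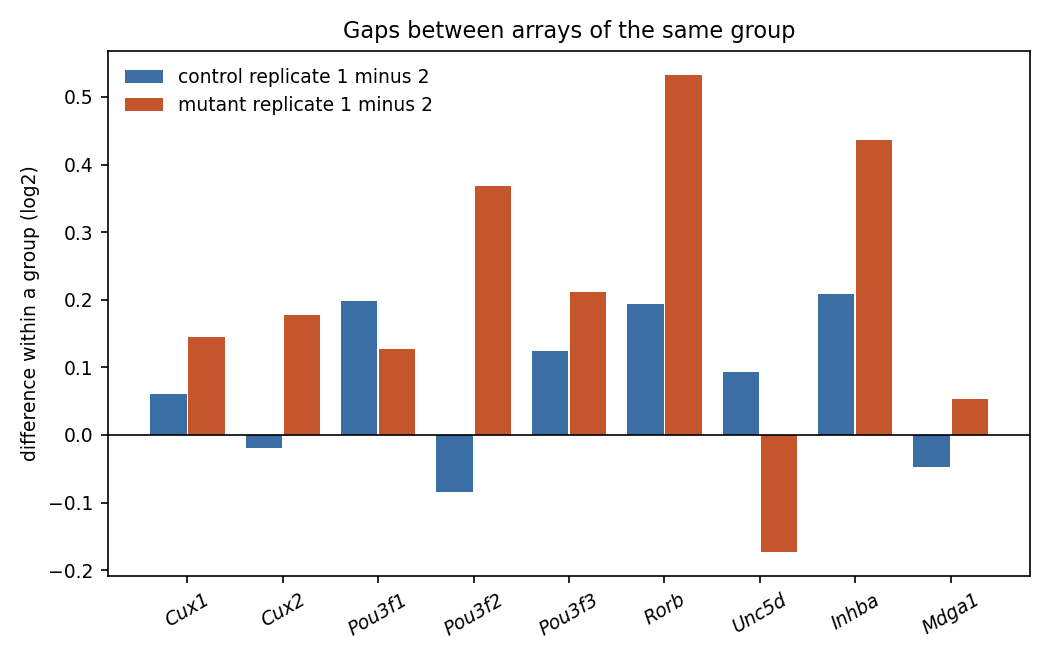
Log2 difference between the samples of a group (replicate 1 minus replicate 2, vertical axis) for each upper-layer gene, with controls in blue and mutants in orange. The mutant bars are above 0 for 8 genes and largest for Rorb at 0.53, and the control bars stay within 0.21 of 0.

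Other genes known from upper-layer neurons were taken as a list of 15, of which 13 had a feature with a single symbol and were tested. None was called, and at an unadjusted p under 0.05 in limma 2 were higher (5.73% of all genes) and none lower (7.69%). Their median difference was 0.07, and 10 had a higher mean in the mutants (52.3% of all genes). Tle3, a Groucho-type corepressor, differed by 0.19 ± 0.06 (SE; adjusted p = 0.287) and Rasgrf2, a RAS exchange factor of superficial layers, by 0.22 ± 0.08 (SE; adjusted p = 0.319). In the other direction, the corepressor Tle1 differed by -0.14 (adjusted p = 0.413) and the LIM homeodomain factor Lhx2 by -0.13 (adjusted p = 0.458). None of these 4 passed in limma. The groups did not overlap for 7 of the 13, with 4 higher and 3 lower, near the share over all genes (44.3%).

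Paralogs and same-class relatives of the members were compared in the same way. Of 17 POU, CUT-class, ROR, UNC5, inhibin and MDGA relatives, 12 were tested, none was called, and the median difference was -0.01. At an unadjusted p under 0.05 in limma, 1 was higher (5.73% of all genes) and none lower (7.69%). That gene was Unc5c, a netrin receptor, which differed by 0.24 ± 0.08 (SE; adjusted p = 0.312). Unc5d, with a difference of -0.23, had the opposite sign. Inha, the inhibin alpha subunit, differed by 0.17 (adjusted p = 0.405). Rora, the nuclear receptor closest to Rorb, differed by -0.11 (adjusted p = 0.504), and Pou3f4, the remaining POU3F factor, by -0.06 (adjusted p = 0.762). None of these 4 passed in limma.

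The list of partners held netrins and FLRT ligands for Unc5d, the receptors, inhibitors and SMAD transducers of activin, and neuroligins for Mdga1. All 20 were tested, none was called, and the median difference was 0.01, with 10 higher and 10 lower means. At an unadjusted p under 0.05 in limma, 2 were higher (5.73% of all genes) and 1 lower (7.69%). The activin transducer Smad3 was at 8.04 and 8.06 in the controls and at 8.26 and 8.24 in the mutants. The gaps within each group were small beside the difference of 0.20 ± 0.05 (SE), which did not pass (limma, adjusted p = 0.219). Smad2 differed by 0.14 ± 0.05 (SE; limma, adjusted p = 0.367). Dcc, a netrin receptor that pairs with UNC5 proteins, was at 10.03 and 10.07 in the controls and at 9.49 and 9.83 in the mutants. Its difference of -0.39 ± 0.12 (SE) did not pass (limma, adjusted p = 0.269). Tgfbr3, a coreceptor for TGF-beta and inhibin, differed by -0.23 (limma, adjusted p = 0.458). Without mutant 2, which leaves mutant 1 alone against the controls, Dcc differed by -0.56 and the activin receptor Acvr2a by -0.34.

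Deep-layer projection neurons are the earlier-born class, and 19 of 20 genes on their list were tested. None was called, and at an unadjusted p under 0.05 in limma 5 were higher and 2 lower, against 5.73% and 7.69% of all genes. The median difference was 0.11, and the groups did not overlap for 13 of 19 (44.3% of all genes), with 11 higher (22.8%) and 2 lower (21.4%). Hs3st4, a heparan sulfate sulfotransferase of layer VI, differed by 0.45 ± 0.07 (SE; adjusted p = 0.0648) and the transcription factor Nfe2l3 by 0.38 ± 0.08 (SE; adjusted p = 0.136) in limma. Etv1, an ETS factor of layer V, differed by -0.43 ± 0.08 (SE; adjusted p = 0.0943) and Ccn2, a matricellular protein of the subplate, by -0.22 ± 0.07 (SE; adjusted p = 0.265) in limma. The median of the deep-layer list was 0.09 in mutant 1 and 0.08 in mutant 2, while that of the 9 upper-layer genes was 0.19 and 0.03. Summed linear signal of the 9 upper-layer genes was 5748 and 5561 in the controls, 6418 in mutant 1 and 5504 in mutant 2. That of the deep-layer list was 19875 and 20393 in the controls, 22574 in mutant 1 and 23294 in mutant 2. Whether the lists differ was not tested.

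**Figure D4:**
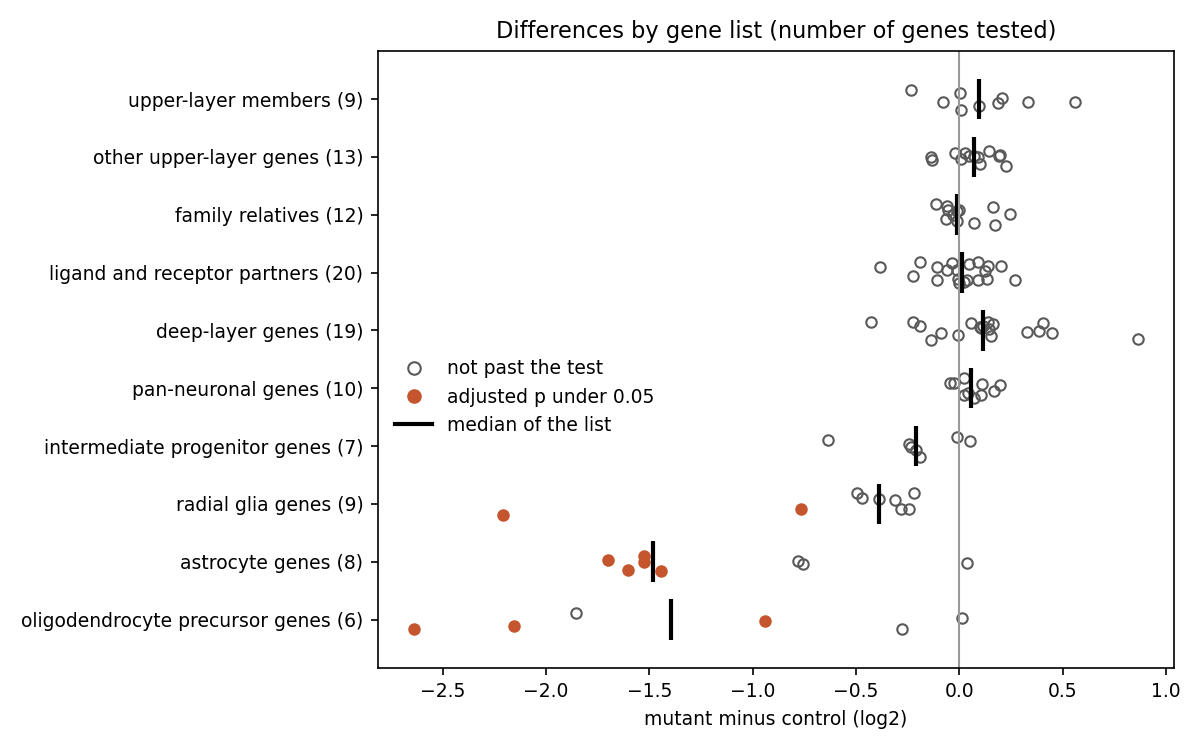
Mutant minus control (log2, horizontal axis) for the genes tested on each list, with open circles for genes that did not pass, filled orange circles for an adjusted p under 0.05 in limma, and a black line at the list median. The upper-layer members lie between -0.23 and 0.56 with none filled. Astrocyte genes extend to -1.70, radial glia genes to -2.21 and oligodendrocyte precursor genes to -2.64.

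Of the other cell types looked at in the same samples, only the astrocyte, radial glia and oligodendrocyte precursor lists held called markers. Of 8 astrocyte markers tested, 5 fell and none rose in limma, where 1.01% of all genes were called lower. At an unadjusted p under 0.05 in limma 6 were lower (7.69% of all genes). Gfap alone had a higher mean in the mutants, by 0.04, and 7 had a lower one. The summed linear signal of the 9 on the array was 13305 to 13455 in controls and 4545 to 5394 in mutants. Fabp7 was the brightest of these, at 12.68 and 12.62 in controls and at 10.97 and 11.13 in mutants. Radial glia markers summed to between 13992 and 14217 in controls and between 9518 and 10721 in mutants, with 2 of 9 called lower in limma. All 9 lay lower in both mutants than in both controls (21.4% of all genes). At an unadjusted p under 0.05 in limma all 9 were lower (7.69% of all genes). Oligodendrocyte precursor markers summed to between 1440 and 1451 in controls and to 512 in each mutant, with 3 of 6 called lower in limma. At an unadjusted p under 0.05 in limma 5 were lower (7.69% of all genes). No marker of intermediate progenitors, the cells that give rise to many upper-layer neurons, was called among the 7 tested. At an unadjusted p under 0.05 in limma, 4 of these markers were lower (7.69% of all genes). Their sums, with 8 on the array, were 2961 to 3011 and 2591 to 2914. Of 10 pan-neuronal markers none was called and 1 was higher at an unadjusted p under 0.05 in limma (5.73% of all genes). All were above the dim level, and their sums were 31996 to 33122 and 34005 to 35239. The 7 interneuron markers summed to between 4456 and 4833 in controls and between 4144 and 4863 in mutants. The 8 striatal markers, taken as a sign of tissue from outside the cortex, summed to between 945 and 981 in controls and between 988 and 1004 in mutants. Of the 7 tested, none was called, 4 had a higher mean in the mutants and 3 a lower one. The sum covers opposite differences, with Drd1 at 0.27 and Tac1, a dim gene left out of the fit, at -0.99. Whether dissection was equal was not tested. Choroid plexus markers summed to 859 in control 2, against 380 in control 1 and 375 and 405 in the mutants. The high sum of control 2 rested mainly on Ttr, the transthyretin gene that is very high in choroid plexus. Ttr was at 6.67 and 9.15 in the controls and at 6.50 and 7.17 in the mutants. Between control 1 and control 2 the other choroid plexus markers differed by less than Ttr. All were dim, with Kl and Otx2 under the level for the fit (log2 6.16), so they say little on choroid plexus content. Whether choroid plexus tissue was carried over into control 2 was not tested. Folr1 was at 6.32 and 6.31, Kl at 5.86 and 5.85, Aqp1 at 6.56 and 6.64, and Otx2 at 5.52 and 5.72. Microglia markers, from a lineage that NestinCre does not mark, were not called. All 4 tested lay lower in both mutants than in both controls (21.4% of all genes), with a median difference of -0.26. At an unadjusted p under 0.05 in limma, 3 were lower (7.69% of all genes). The 6 on the array summed to 944 to 964 in controls and 786 to 823 in mutants. The 5 Cajal-Retzius markers all had lower means in the mutants with none called or past an unadjusted p of 0.05 in limma, and their sums were 2800 to 2850 and 2247 to 2784. Endothelial markers summed to 1671 to 1672 and 1556 to 1779. The single blood marker on the array, the heme enzyme Alas2, differed by -0.23 (limma, adjusted p = 0.236). The part of these markers in the values of the upper-layer genes was not tested. In bulk tissue, fewer cells of a type and less RNA per cell cannot be told apart.

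The samples and the targeted gene were checked in the same fit. Root mean square differences over the genes tested were 0.149 between the controls, 0.191 between the mutants and 0.178 to 0.230 across the groups, with mutant 1 the farthest from the control mean. Sex-linked transcripts showed 1 female and 1 male sample in each group. Control 1 and mutant 2 were female, and control 2 and mutant 1 were male. The part of sex in the gap between mutant 1 and mutant 2 was not tested. Map2k1, which encodes MEK1, was at 8.76 and 8.84 in the controls and at 8.50 and 8.73 in the mutants. Both mutants lay below both controls (21.4% of all genes), for a difference of -0.19 ± 0.09 (SE; limma, adjusted p = 0.469). That difference was -0.30 without mutant 2 and -0.07 without mutant 1. The part of Map2k1 in the gap between the mutants was not tested. Its feature spans the transcript, so it does not check the deletion. Map2k2 differed by 0.08 (limma, adjusted p = 0.657), and it gave signal in controls and mutants alike, so it is no check of the Mek2 allele.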

How the data were processed

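RNA of 4 samples was measured on single-colour arrays. Per the submitters' processing notes, RMA was the method behind the deposited log2 values of the authors. Its version, filters and genome build are not given in the sources, and the log scale was inferred from the values. RMA aligns the arrays to 1 distribution, which hides a shift common to most transcripts and compresses folds of dim genes. No detection call was used, and the small number of arrays limits precision.

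Of 35557 features, 21789 have 1 symbol in the platform annotation, 1621 several, and 12147 are not listed there. Entrez identifiers matched 21698 of the symbols to RefSeq (GRCm38.p6). The brightest feature was kept for 999 genes with several. Genes with a mean under the 30th percentile were left out, and 13956 were tested with limma 3.58.1 in R 4.3.3 (lmFit, eBayes, no covariate, 2 residual degrees of freedom, n = 2 per group), with Benjamini-Hochberg adjustment and calls at an adjusted p under 0.05. No label says that samples of a group are separate embryos, so p-values set the differences against the spread between these samples. That spread is moderated in eBayes by a prior drawn from all genes tested (3.31 prior degrees of freedom). The fit was tested on simulated data.

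The members and lists were chosen with earlier results of these data known. Named genes are the 9 members and the targeted genes. On the lists of relatives, partners and layers, they are any gene called and the 2 with the smallest p in each direction. Acvr2a, Sox5, Foxp2, Crym, Zfpm2, S100a10, Fabp7, Gfap, Ttr, Folr1, Kl, Aqp1, Otx2, Drd1, Tac1 and Alas2 were named after their values were seen. The labels number the samples 1 and 2 in each group, but deviations of same-numbered samples from their group means correlated at -0.158 over genes, so the numbers were not taken to pair samples. In all, 12 other settings were run for each result, and 1 was added after seeing the data.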

Additional observations from a re-analysis of the deposited data

How the results depend on the processing

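None of the 9 upper-layer genes was called under 11 of the 12 other settings; without mutant 2 the count was 2, so that leaving out each sample in turn gave 0 to 2. For the other upper-layer genes that range was 0 to 1, for the relatives 0 to 0, for the partners 0 to 2 and for the deep-layer genes 0 to 7. Of the deep-layer genes, 1 was called under the filter at the 50th percentile (Hs3st4), 2 with a mean-variance trend (Hs3st4 and Etv1), and 1 with the replicate number as a block (S100a10, 0.86, adjusted p = 0.0402 in limma); the cause was not tested. With the replicate block the upper-layer count was 0 and 116 genes were called in all, against 143 without it. Pairing the samples by crossed numbers, chosen after seeing the data, or by sex gave the same split of samples, with 0 upper-layer genes and 17 genes called in all. The adjusted p of Inhba in limma was 0.0814 with the replicate block and 0.364 with the crossed pairing, against 0.236 with neither. Without mutant 2, the called deep-layer genes were Sox5, Foxp2, Crym, Etv1, Hs3st4, Nfe2l3 and Zfpm2. Over all genes the count was 15 with dim genes kept, 238 with the trend, 0 with every feature tested, 9 when either control was left out, 262 when mutant 1 was and 881 when mutant 2 was, so the share set beside the members depends on the fit.

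Small differences changed sign. Leaving out each sample in turn moved Cux1 between -0.064 and 0.081, Pou3f1 between -0.0053 and 0.19, Pou3f2 between -0.18 and 0.19 and Pou3f3 between -0.19 and 0.027. Cux1 was below 0 without control 2 (-0.022) and without mutant 1, Pou3f1 without control 2, and Pou3f2 without control 1 (-0.041) and without mutant 1, while Pou3f3 was above 0 without mutant 2. Pou3f2 was at -0.0028 after a further quantile normalization. Cux2, Rorb, Unc5d, Inhba and Mdga1 kept their sign under all 12 settings, with Inhba between 0.34 and 0.78 and Rorb between 0.06 and 0.60. The median difference of the 9 genes, 0.094 over all samples, was 0.16 and 0.044 when control 1 or control 2 was left out, and 0.030 and 0.19 when mutant 1 or mutant 2 was. That of the other upper-layer genes, 0.069 over all samples, was 0.016 without control 2 and 0.038 without mutant 1, and that of the relatives was 0.050 without mutant 2.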

Other observations

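Genes of the activin pathway had no shared direction. Of its ligand subunits, Inhba differed by 0.56 and Inhbb by -0.05 (adjusted p = 0.854 in limma). Smad3 differed by 0.20 and Smad2 by 0.14, while Smad4, the common SMAD, differed by -0.003. The type I receptor Acvr1c differed by 0.27 (adjusted p = 0.373 in limma) and Acvr1b by 0.05, and the antagonists Fst, follistatin, and Fstl3 by -0.06 and 0.09. The type II receptor Acvr2a differed by -0.19 (adjusted p = 0.531 in limma), Acvr2b by -0.01, and the inhibin coreceptor Tgfbr3 by -0.23. Both mutants lay above both controls for Inhba, Smad3, Smad2 and Acvr1c (22.8% of all genes), and below them for Acvr2a and Tgfbr3 (21.4%). For the other activin pathway genes named here the groups overlapped. None of the activin pathway genes named here passed in limma over all 4 samples. Inhbb, Smad4, Acvr1c, Acvr1b, Fst, Fstl3, Acvr2a and Acvr2b were named after their values were seen.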
